A study of Mus musculus with 9 samples.

Results

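The 10 genes of glucocorticoid signalling described here were counted in single cells of the mouse hypothalamic paraventricular nucleus. They are Nr3c1, Nr3c2, Fkbp4, Fkbp5, Tsc22d3, Sgk1, Per1, Ncoa1, Ncoa2 and Hsd11b1, chosen by name, and they make up 10 of the 24378 gene rows of the table. The data are counts of molecules per gene in 9 cells, each labelled as secretagogin-positive and called here cell 1 to cell 9. All cells came from the paraventricular region of C57Bl6/N mice aged 21 to 28 days, with no treatment in the labels, so there is 1 group and no comparison of conditions. No animal is named for any cell. The 9 cells were therefore described as 1 sample, and no p-value was computed.

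Corticosterone, the main glucocorticoid of mice, enters cells and binds the glucocorticoid receptor, encoded by Nr3c1. Without hormone the receptor is held in the cytoplasm by Hsp90 and its partners, among them the immunophilins FKBP52 (Fkbp4) and FKBP51 (Fkbp5). With hormone it enters the nucleus, binds response elements in DNA and recruits coactivators of the p160 family (Ncoa1 and Ncoa2). Parvocellular neurons of the paraventricular nucleus release corticotropin-releasing hormone, encoded by Crh, and the receptor is known there for the negative feedback by which glucocorticoids restrain this hormone. Nr3c2 encodes the mineralocorticoid receptor, which also binds corticosterone, and Hsd11b1 encodes the enzyme that regenerates active glucocorticoid inside cells. Tsc22d3 (GILZ), Sgk1, Per1 and Fkbp5 are widely used as glucocorticoid-induced target genes.

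The depth was 1021 to 26466 gene molecules per cell, with a median of 9573. Spike-in molecules were 1962 to 2184 in the 8 cells of lane 3 and 614 in cell 9, the only cell of lane 4. The chambers of 4 cells, cells 4, 5, 7 and 8, carried 3 or more markers of a non-neuronal type with at least 2 molecules each. Cell 4 held all 12 endothelial markers and 4 of 7 blood markers, cell 5 all 12 oligodendrocyte markers, and cell 7 held 10 of 12 endothelial markers, with Pecam1 and Cdh5 at 0. Cell 8 held 8 of 10 ependymal and tanycyte markers and 5 of 10 astrocyte markers. Neuron markers were found in every cell, with 7 to 12 of 12 in these 4 cells. In cell 1 there were 2 of 12 neuron markers at 1 molecule or more, and in cell 6 there were 5 of 12. With 7 of 12 in cells 4, 7 and 8, a neuronal identity rests on few markers in cells 1, 4, 6, 7 and 8. Meg3 gave 61 of 62 neuron-marker molecules in cell 1, 28 of 36 in cell 4 and 33 of 42 in cell 6. It gave 75 of 91 in cell 7 and 12 of 35 in cell 8. Cell 8 had the lowest neuron-marker level of the 9 cells, 26.6 per 10000. Scgn, the gene of the labelled marker secretagogin, had molecules in 5 of the 9 cells (2, 3, 5, 8 and 9) and none in cells 1, 4, 6 and 7. Among the other marker lists there were 4 molecules for oligodendrocyte precursors, 12 for mural cells (10 of them in cell 4) and 2 for fibroblast-like cells over all 9 cells.

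The receptor acts on its targets through DNA, so 3 stretches before start sites of Sgk1, Tsc22d3 and Per1 are shown with the matches found in them. The canonical glucocorticoid response element is a palindrome of 15 bases, AGAACA and TGTTCT with any 3 bases between them. Windows of 250 bases before RefSeq start sites (GRCm38.p6) were searched on both strands, and 8 of the 10 genes had at least 1 window, 16 in all. No window of Nr3c1 or Ncoa2 was used. The palindrome was present in 1 of the 16 windows, at chr10:21993701-21993715, starting 189 bases before an internal start site of Sgk1. It was present in 3 of all 32851 windows, or 0.00913%. A single arm of the palindrome (TGTTCT or its reverse complement AGAACA) was in 4 of 16 windows, 3 of Sgk1 and 1 of Tsc22d3. The share of all windows was 16.1%, and both arms of the palindrome count among these matches. The cAMP response element TGACGTCA was in none of the 16 windows and in 1.55% of all, and its shorter form TGACGT was in 1 window, of Per1, against 6.47% of all. The Sgk1 and Per1 stretches lie within introns of their annotated genes and overlap no annotated exon. The Tsc22d3 stretch is the 113 bases of its window that lie just upstream of the annotated gene. The rest of that window, nearer the RefSeq start site, is not shown, and the marked arm starts 185 bases before that site. Capitals mark the palindrome in Sgk1 (chr10:21993640-21993889, plus strand), 1 arm in Tsc22d3 (chrX:140600660-140600772, minus strand) and TGACGT in Per1 (chr11:69099902-69100151, plus strand). A further arm in the Sgk1 stretch, starting 242 bases before the same start site, is left in lower case. A match is a stretch of letters and not a measured binding site, and no match says only that the letters are not in the window.
Sgk1: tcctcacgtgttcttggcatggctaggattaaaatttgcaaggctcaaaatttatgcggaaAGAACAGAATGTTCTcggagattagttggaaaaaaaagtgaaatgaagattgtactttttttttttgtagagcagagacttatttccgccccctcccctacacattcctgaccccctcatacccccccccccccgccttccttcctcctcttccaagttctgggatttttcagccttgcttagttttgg
Tsc22d3: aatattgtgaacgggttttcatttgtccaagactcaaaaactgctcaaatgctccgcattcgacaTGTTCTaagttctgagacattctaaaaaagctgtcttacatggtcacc
Per1: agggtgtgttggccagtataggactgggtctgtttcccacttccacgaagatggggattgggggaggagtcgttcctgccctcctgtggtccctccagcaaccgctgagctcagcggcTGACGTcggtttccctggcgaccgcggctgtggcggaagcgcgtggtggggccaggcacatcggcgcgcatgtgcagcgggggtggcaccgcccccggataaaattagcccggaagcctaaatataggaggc

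Of the 10 genes, 2 (Nr3c1 and Tsc22d3) were detected, with at least 1 molecule, in 5 or more of the 9 cells, against 6.76% of all gene rows. Another 5 (Fkbp4, Sgk1, Per1, Ncoa1 and Ncoa2) were detected in 3 or 4 cells. The remaining 3 (Nr3c2, Fkbp5 and Hsd11b1) had no molecule in any cell, as had 59.9% of all gene rows. Together the genes gave 77 molecules. The level of a gene is given as molecules per 10000 gene molecules of the cell, with an exact 95% Poisson interval that covers counting error only. Summed over the 10 genes, the levels of cells 1 to 9 were, in that order, 0, 5.22, 9.32, 14.1, 7.18, 2.95, 16.8, 6.07 and 6.39. Cells 7 and 4, both with endothelial markers, had the highest sums, and their intervals (8.66 to 29.3 and 8.24 to 22.6) overlapped those of every other cell.

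**Figure D1:**
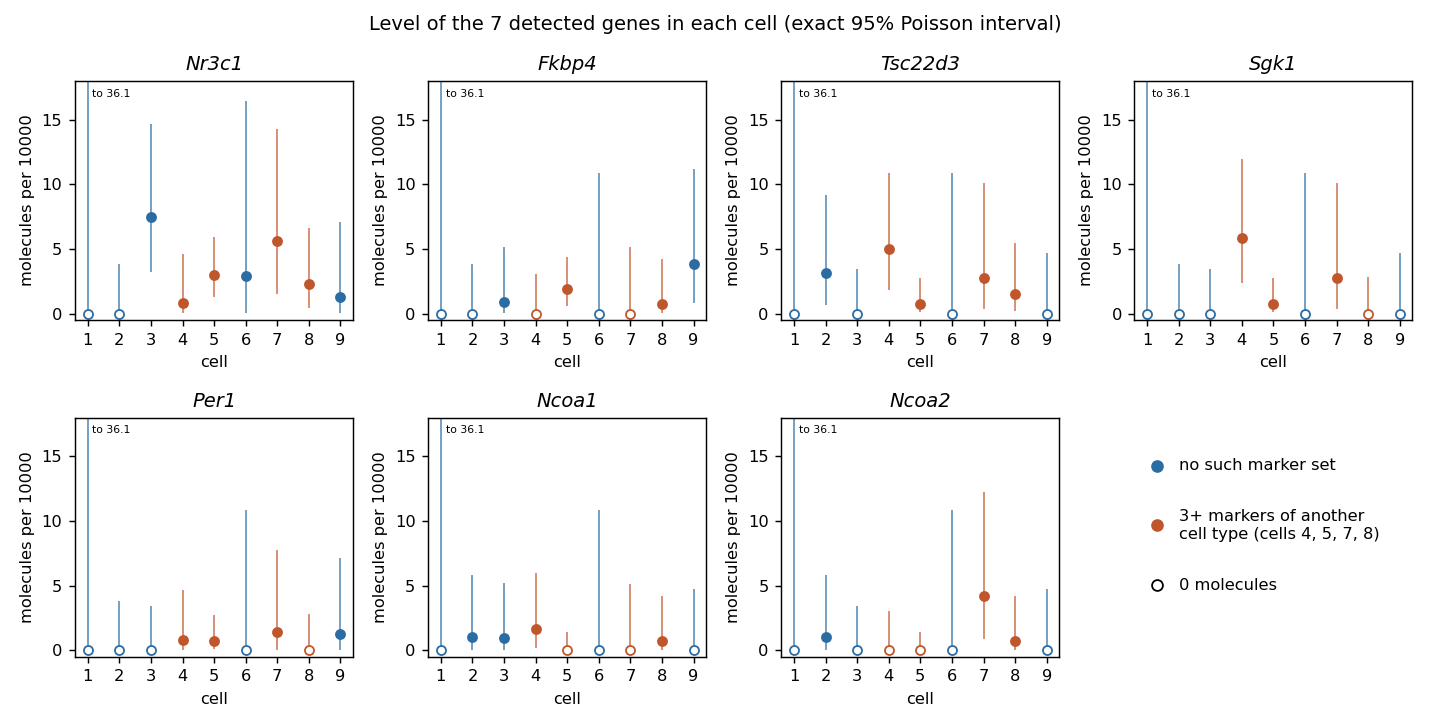
Level of the 7 detected genes in each cell (molecules per 10000 gene molecules, linear axis), with exact 95% Poisson intervals; open circles are counts of 0, and orange marks cells 4, 5, 7 and 8, which carried non-neuronal markers. Nr3c1 was spread over 7 cells, Sgk1 had molecules in cells 4, 5 and 7, and the interval of cell 1 reaches 36.1 and leaves the axis.

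Nr3c1, the glucocorticoid receptor gene (ENSMUSG00000024431.15, chromosome 18, 39410545 to 39519421, minus strand, GRCm38/mm10), was the member found in the most cells. Cells 3 and 5 held 8 molecules each, cell 7 held 4, cell 8 held 3, and cells 4, 6 and 9 held 1 each, while cells 1 and 2 had none. For cells 3, 7, 5, 6, 8, 9 and 4, in descending order, the levels were 7.46, 5.59, 3.02, 2.95, 2.28, 1.28 and 0.832 per 10000, with intervals of 3.22 to 14.7 at the top and 0.0211 to 4.63 at the bottom. Cell 3 is a cell without the non-neuronal marker sets, and it also held 11 molecules of Scgn, the secretagogin gene. No pair of neighbours in this order was apart, and none of the 36 pairs of cells had separate intervals. The ratio of the highest to the lowest detected cell, cell 3 over cell 4, was 8.96 (exact conditional 95% interval 1.2 to 398), a pair picked for its extremes. Summed within each set of cells, Nr3c1 was at 3.07 per 10000 in cells 1, 2, 3, 6 and 9 (10 molecules in 3 cells) and at 2.72 in cells 4, 5, 7 and 8 (16 molecules in 4 cells). The receptor transcript was therefore seen both with and without non-neuronal markers. It was the only member found in 3 or more of the 5 cells without them, against 5.78% of all gene rows. In cell 2, with 9573 molecules, the count of 0 allows up to 3.13 per 10000, which is above the level of most cells in which Nr3c1 was detected.

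Nr3c2, the mineralocorticoid receptor gene (chromosome 8, 76899442 to 77245012, plus strand), had no molecule in any cell. Over the 91370 molecules of all cells, a count of 0 allows up to 0.328 per 10000 (3 molecules of the total), and over cells 1, 2, 3, 6 and 9 together it allows 0.922. Cells 3, 5 and 7, with 8, 8 and 4 molecules of Nr3c1, exceeded the limit of 3 molecules that a 0 of Nr3c2 allows in a cell. The exact intervals of the 2 genes still overlapped in each of these cells. In that order, those of Nr3c1 began at 3.22, 1.31 and 1.52 per 10000, and those of Nr3c2 reached 3.44, 1.39 and 5.15. In molecules, the Nr3c1 count over all cells was 8.67-fold the limit of 3 molecules set for Nr3c2 over the group. Per kilobase of annotated exon it was 7.30-fold, a form that applies only if counts grow with transcript length. These ratios leave out the counting error of Nr3c1, so they are not lower bounds. Over all cells the exact interval of Nr3c1 was 1.86 to 4.17 per 10000, and that of Nr3c2 reached 0.404. Hsd11b1, the glucocorticoid-regenerating enzyme gene (chromosome 1, 193221634 to 193264075, minus strand), was likewise at 0 in all cells, with the same limit of 0.328. None of the 10 listed genes of steroid access and other steroid receptors was found in 5 or more cells, against 6.76% of all gene rows. Of that list, 7 had no molecule, as had 59.9% of all gene rows. Hsd11b2 and the estrogen receptor genes Esr1 and Esr2 were among the 7. Abcb1a, the drug-efflux pump of the blood-brain barrier that also exports steroids, had 3 molecules in cell 7 and 1 in cell 4, the cells with endothelial markers, and Pgr and Srd5a1 had 1 molecule each in cell 5.

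The immunophilins that ride on the receptor complex differed in their counts over all cells. Fkbp4 (chromosome 6, 128429735 to 128438677, minus strand), which encodes the co-chaperone FKBP52 that favours transport of the receptor to the nucleus, was counted at 5 molecules in cell 5 and 3 in cell 9, and at 1 in both cell 3 and cell 8. Fkbp5 (chromosome 17, 28399094 to 28517527, minus strand), which encodes FKBP51, a brake on the receptor that glucocorticoids themselves induce, had none in any cell and the limit of 0.328 per 10000. In molecules, the Fkbp4 count over all cells was 3.33-fold the same limit of 3 molecules, set for Fkbp5 over the group. Per kilobase of exon it was 11.3-fold, a form that applies only if counts grow with transcript length. These ratios leave out the counting error of Fkbp4, so they are not lower bounds. Over all cells the exact interval of Fkbp4 was 0.525 to 2.01 per 10000, and that of Fkbp5 reached 0.404. Within each single cell the exact intervals of the 2 genes overlapped. Those of Fkbp4 began at 0.613 in cell 5 and 0.790 in cell 9, and those of Fkbp5 reached 1.39 and 4.71. At this depth a low level of Fkbp5 was not detectable in single cells, since a 0 allows 1.13 per 10000 in cell 5 and 29.4 in cell 1.

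The cells with Fkbp4 were the 4 cells with Crh. Cell 9 held 19 Crh molecules, cell 5 held 13, and cells 3 and 8 held 2 each. The levels of Crh were 24.3, 4.91, 1.86 and 1.52 per 10000 in these cells, and those of Fkbp4 were 3.83, 1.89, 0.932 and 0.759, so the levels of both genes ran in the order 9, 5, 3 and 8. That order holds per depth and not in molecules: Fkbp4 had 5 molecules in cell 5 and 3 in cell 9, and cells 3 and 8 had equal counts of each gene. The ratio of the Fkbp4 levels of cells 9 and 5 was 2.03 (interval 0.315 to 10.4), so their order is within counting error. Among the 941 gene rows detected in exactly 4 cells, 7.12% were detected in these 4 cells and no other, and 11.9% of those 67 rows also had the same order of levels as Crh. Both shares include the rows of Crh and Fkbp4 themselves. Spearman's correlation of the levels of Fkbp4 and Crh over the 9 cells was 1.00, with 5 cells tied at 0 for both genes. It is a description of cells that share libraries, and both levels also had a correlation of 0.49 with depth. Cell 9 stands apart by lane and spike-ins; per 1000 spike-in molecules, Fkbp4 was at 4.89, 2.29, 0.467 and 0.459 in cells 9, 5, 3 and 8, the same order. The intervals of Fkbp4 overlapped in all 36 pairs of cells, and in cells 2, 4, 6 and 7 the limits for a 0 (2.50 to 8.84) lay above the Fkbp4 levels of cells 3, 5 and 8.

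**Figure D2:**
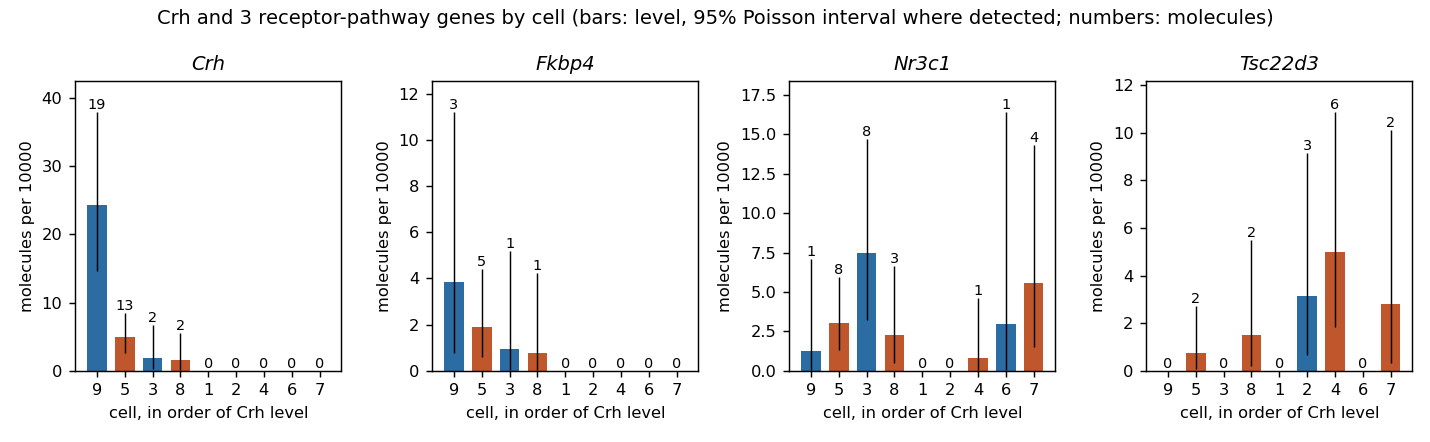
Levels of Crh, Fkbp4, Nr3c1 and Tsc22d3 (molecules per 10000, linear axes that differ between panels) with cells in the order of their Crh level; numbers are molecules, lines are exact 95% Poisson intervals where a gene was detected, and orange marks cells with non-neuronal markers. Fkbp4 was detected in the 4 cells with Crh, at 3, 5, 1 and 1 molecules against 19, 13, 2 and 2, while Tsc22d3 had no molecule in cells 9 and 3.

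The other members did not share that order. Nr3c1 was present in all 4 cells with Crh, at 1, 8, 8 and 3 molecules in cells 9, 5, 3 and 8, and in 3 of the 5 cells without Crh. Its lowest level among the Crh cells, 1.28 per 10000, lay in cell 9, the cell with the most Crh. Tsc22d3 was present in 2 of the 4 Crh cells, Per1 in 2, Ncoa1 in 2, Sgk1 in 1 and Ncoa2 in 1. The correlations of these 6 genes' levels with that of Crh over the 9 cells ran from -0.42 (Tsc22d3) to 0.37 (Nr3c1). Counts this sparse give no finding from values of that size. Cells 3 and 9 are the Crh cells without non-neuronal marker sets. Of the 7 members detected in 3 or more cells, 2 (Nr3c1 and Fkbp4) were detected in both cells 3 and 9, against 36.9% of such gene rows. In neither of these cells were 3 members (Tsc22d3, Sgk1 and Ncoa2) detected, against 19.2%.

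The detected target genes Tsc22d3, Sgk1 and Per1 had most of their molecules in cells with non-neuronal markers, 12 of 15, 11 of 11 and 4 of 5. Tsc22d3 (chromosome X, 140539528 to 140600659, minus strand) encodes GILZ, a leucine-zipper protein that mediates part of the anti-inflammatory action of glucocorticoids. Cell 4 held 6 molecules, cell 2 held 3, and cells 5, 7 and 8 held 2 each, with none in cells 1, 3, 6 and 9. For cells 4, 2, 7, 8 and 5 the levels were 4.99, 3.13, 2.79, 1.52 and 0.756 per 10000, with intervals of 1.83 to 10.9 at the top and 0.0915 to 2.73 at the bottom. Cells 4, 5, 7 and 8 hold 64.4% of all molecules of the table, and cell 2 alone carried Tsc22d3 without such markers. Of gene rows detected in exactly 5 cells, 8.32% were found in all of cells 4, 5, 7 and 8. In cells 3 and 9 a 0 allows up to 2.80 and 3.83 per 10000, levels at or above those of cells 5, 7 and 8.

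Sgk1 (chromosome 10, 21882184 to 21999903, plus strand) encodes a kinase of ion transport and cell survival that glucocorticoids and mineralocorticoids induce. Cell 4 held 7 molecules, cells 5 and 7 held 2 each, and no other cell held any. For cells 4, 7 and 5 the levels were 5.82 (interval 2.34 to 12), 2.79 and 0.756 per 10000. All 11 molecules therefore lay in cells with non-neuronal markers, while cells 1, 2, 3, 6 and 9 held none, with a joint limit of 0.922 per 10000. Of gene rows detected in exactly 3 cells, 11.2% had all 3 among cells 4, 5, 7 and 8. The ratio of cell 4 to cell 5 was 7.70 (interval 1.47 to 76.0) for Sgk1 and 6.60 (interval 1.18 to 66.9) for Tsc22d3, again between extremes. Cell 4 had the highest level of 3 of the 7 members detected in 3 or more cells (Tsc22d3, Sgk1 and Ncoa1), against 5.14% of such rows. Endothelial markers were at 131 per 10000 in cell 4 and 99.2 in cell 7, at most 8.84 in the other cells and 0 in cells 1, 2, 3 and 9. Mural markers, those of the vessel wall, were at 8.32 per 10000 in cell 4, from 3 of 7 markers and chiefly Rgs5 (8 of 10 molecules), with Pdgfrb, Kcnj8, Acta2 and Tagln at 0. The part of these other cells' RNA in the levels of Sgk1 and Tsc22d3 was not tested.

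Per1 (chromosome 11, 69095217 to 69109960, plus strand), a clock repressor that glucocorticoids and neuronal activity both induce, was counted at 2 molecules in cell 5 and at 1 in cells 4, 7 and 9. Its levels lay between 0.756 and 1.40 per 10000 in these cells. The coactivator genes Ncoa1 (chromosome 12, 4247362 to 4477182, minus strand) and Ncoa2 (chromosome 1, 13139105 to 13374083, minus strand) had 5 molecules each. For Ncoa1, cell 4 held 2 and cells 2, 3 and 8 held 1. For Ncoa2, cell 7 held 3, or 4.19 per 10000 (interval 0.864 to 12.2), and cells 2 and 8 held 1. The p160 genes were detected together in cells 2 and 8. No pair of cells had separate intervals for Per1, Ncoa1 or Ncoa2.

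Other known glucocorticoid-induced genes were read from a list of 25, of which 3 were detected in 5 or more cells, 11 in 1 to 4 cells and 11 in none. The shares of all gene rows were 6.76% in 5 or more cells and 59.9% in none. The summed level per 10000 was 60.7 for cell 8 (interval 48.1 to 75.6), 43.2 for cell 4 (32.3 to 56.7) and 41.9 for cell 7 (28.3 to 59.8). For cells 2, 5, 3, 6, 9 and 1 it was 9.40, 8.69, 6.52, 2.95, 2.56 and 0. The intervals of cells 4, 7 and 8 lay apart from those of cells 2, 3, 5, 6 and 9. Of the list's 204 molecules, 90.7% lay in cells 4, 5, 7 and 8, which hold 64.4% of all molecules. Mt1, a metal-binding metallothionein, was at 62, 16 and 15 molecules in cells 8, 5 and 4, and at most 2 elsewhere. Dusp1, a MAP kinase phosphatase that is also an immediate early gene, had 22 of its 42 molecules in cell 7. Nfkbia, the inhibitor of NF-kappaB, had 10 molecules in cell 4 and 5 in cell 7. Without Mt1 and Mt2 the sum of cell 8 was 9.11, beside 8.36 for cell 2, while cells 4 and 7 stood at 26.6 and 41.9. Without Dusp1 as well, cell 4 stood at 22.5 (14.8 to 32.7) and cell 7 at 11.2 (4.82 to 22.0), with 2.27 to 3.79 for cells 2, 3, 5, 6 and 8. These subsets were chosen after the values were seen. The cell with the highest sum changed with the genes left out, from cell 8 to cell 7 and then to cell 4, whose last interval overlapped those of cells 1, 6 and 7.

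**Figure D3:**
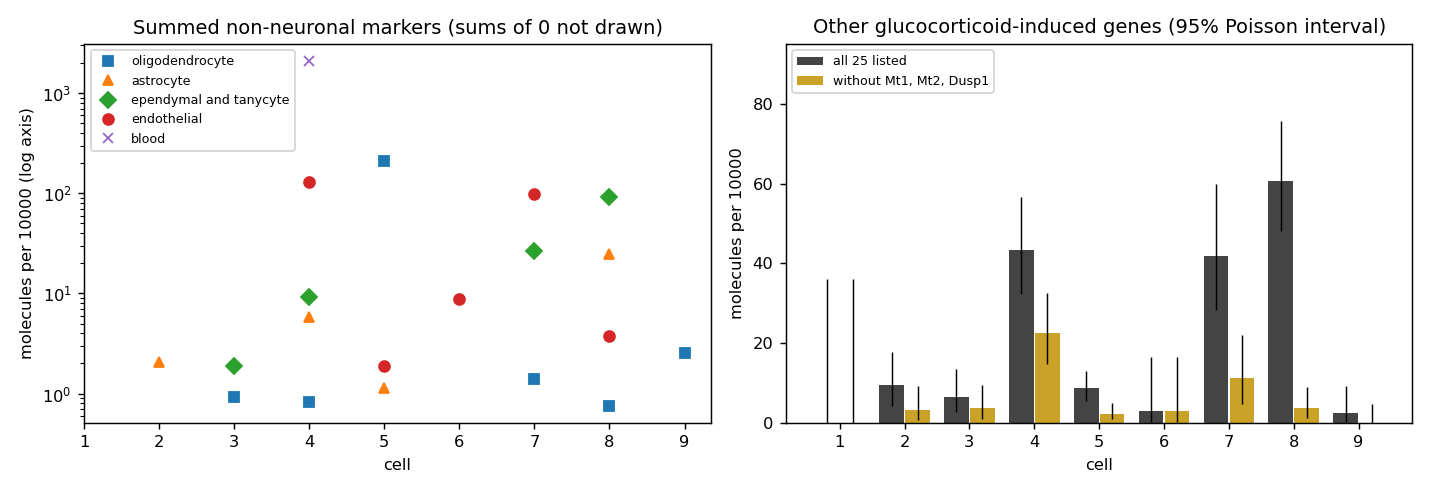
Left, summed markers of 5 non-neuronal cell types in each cell (molecules per 10000, log axis, sums of 0 not drawn); right, summed level of the 25 other glucocorticoid-induced genes (linear axis) with all genes and without Mt1, Mt2 and Dusp1, with exact 95% Poisson intervals. Cells 4 and 7 had endothelial markers at 131 and 99.2 per 10000, and cells 4, 7 and 8 had the highest sums of induced genes at 43.2, 41.9 and 60.7.

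Immediate early genes, which neuronal activity and tissue dissociation induce, as they can Per1 and Sgk1, were common. Of 20 listed, 10 were detected in 5 or more cells, against 6.76% of all gene rows. Another 7 were in 1 to 4 cells and 3 in none, against 59.9% of all gene rows in none. Fos, Jun, Egr1 and Fosb, transcription factors of the early response, had 129, 97, 98 and 53 molecules, and Btg2, an antiproliferative early gene, had 37. For cells 1 to 9, in that order, the summed level was 97.9, 36.6, 47.5, 68.2, 13.6, 35.4, 189, 101 and 67.7 per 10000. Cell 7, with the highest value, had Sgk1 at 2.79 and Per1 at 1.40 per 10000. Cell 5, with the lowest value and the greatest depth, had both at 0.756, and cell 8 had a molecule of neither. The part of the early response in the levels of Per1 and Sgk1 was not tested.

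Of 14 listed genes of the Hsp90 complex that holds the receptor, 8 were detected in 5 or more cells and the other 6 in 1 to 4. The share of all gene rows in 5 or more cells was 6.76%. Hsp90ab1 and Hsp90aa1, the constitutive and inducible Hsp90 genes, had 293 and 251 molecules, each in all 9 cells. Hsp90ab1 ranged from 5.89 to 45.3 per 10000 with a median of 23.0, and Hsp90aa1 from 11.2 to 49.0 with a median of 23.6. Hspa8, the constitutive Hsp70, had 249 molecules in 7 cells, and Dnaja1, its Hsp40 partner, had 47 in 6. Stip1, the adaptor between Hsp70 and Hsp90, had 11 of its 18 molecules in cell 9, the cell with the highest Fkbp4 level. These chaperones serve many other proteins, so their counts do not measure the receptor complex.

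Among 15 coregulators beside Ncoa1 and Ncoa2, 3 were detected in 5 or more cells, 10 in 1 to 4 and 2 in none. The shares of all gene rows were 6.76% in 5 or more cells and 59.9% in none. Med1, the receptor-binding subunit of the Mediator complex, had 10 molecules in 6 cells, and Crebbp, a histone acetyltransferase, had 11 in 5. Ncoa4, a coactivator that also directs ferritin to autophagy, had 13 in 5. Ncoa3, the remaining p160 gene, had none. Of 19 clock genes found in the table, 3 were in 5 or more cells, 12 in 1 to 4 and 4 in none, against the same shares. Bhlhe40, a transcriptional repressor of the clock, had 10 molecules, Nr1d2, which encodes REV-ERB beta, had 8 with 4 of them in cell 7, and Csnk1d, a kinase of the PER proteins, had 7. Per2 had 3 molecules in cell 7 and 1 in cell 5, both of which also held Per1, and was named for its kinship with that gene after its values were seen.

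Relatives of the target genes showed which family members were present. Of 21 listed, 5 were in 5 or more cells, 10 in 1 to 4 and 6 in none. The shares of all gene rows were 6.76% in 5 or more cells and 59.9% in none. Tsc22d1, the founding member of the TSC22 family, had 43 molecules in 7 cells and its highest level, 15.3 per 10000, in cell 9, where Tsc22d3 had none. In cell 9, the only cell of lane 4, that 0 allows up to 3.83 per 10000. Sgk2 and Sgk3 had no molecule, so Sgk1 was the SGK gene detected here. Nedd4, a ubiquitin ligase related to the SGK1 substrate Nedd4l, had 34 molecules in 7 cells. The small immunophilins Fkbp3 and Fkbp1a had 44 and 26 molecules in 6 and 8 cells, and Fkbp3 was highest in cell 9 at 10.2 per 10000. Of 13 stress-axis genes, 2 (Oxt and Scgn) were in 5 or more cells, 6 in 1 to 4 and 5 in none, against the same shares. Oxt had 8, 3, 5, 5, 8, 8, 7, 0 and 5 molecules in cells 1 to 9. Its count was 8 both in cell 1, with 1021 gene molecules, and in cell 5, with 26466. Whether each of these cells transcribed Oxt was not tested. Crhr1, the receptor for corticotropin-releasing hormone, had 2 molecules in cell 5, and Crhr2 had none.

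**Figure D4:**
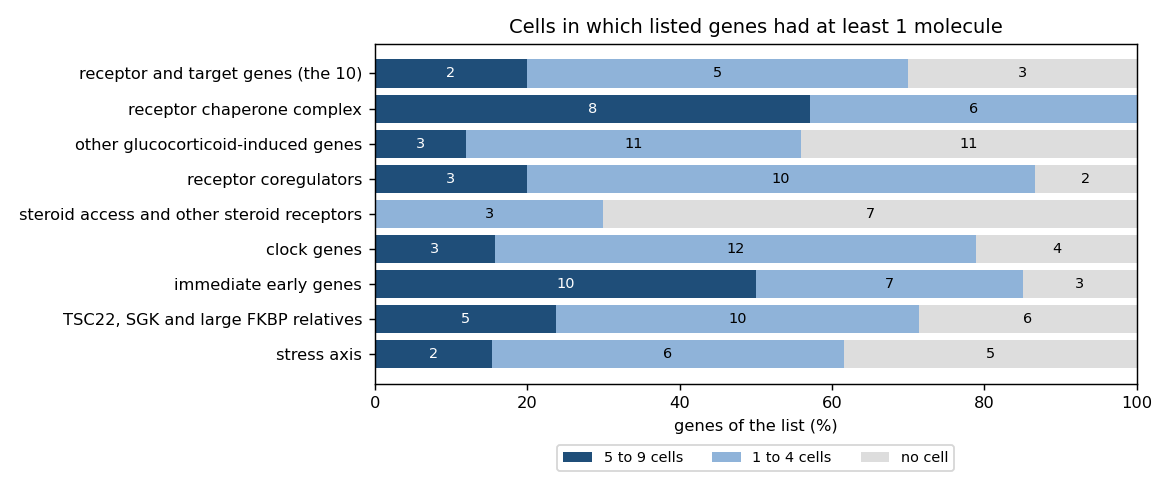
Share of the genes of each list (percent, horizontal axis) detected with at least 1 molecule in 5 to 9 cells, in 1 to 4 cells or in no cell; numbers in the bars are genes. The 10 receptor and target genes split into 2, 5 and 3, while 8 of 14 genes of the Hsp90 complex and 10 of 20 immediate early genes reached 5 cells. Of all gene rows, 6.76% reached 5 cells and 59.9% had no molecule.

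Genes with the pattern most like that of Nr3c1 were sought by Spearman's correlation of levels over the 9 cells, among 699 genes with at least 20 molecules in 5 or more cells. They were Dync1i2, a dynein intermediate chain (0.86), Calb1, which encodes the calcium buffer calbindin (0.83), and Pfdn1, a prefoldin subunit (0.80). For Tsc22d3, among 700 such genes, they were Srsf7, a splicing factor (0.91), Ctnnb1, which encodes beta-catenin (0.87), and H3f3a, a histone H3.3 gene with many near-identical copies whose reads could be split (0.85). These are the highest values of many over 9 cells that share depth differences, and they carry no test.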

How the data were processed

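The table that the authors deposited gives counts of molecules, all whole numbers, for 24378 genes and 92 spike-ins across 9 cells. Per the labels' protocols, cells were dissociated with papain from slices of 300 µm, captured on a C1 chip, given spike-in RNA at lysis and amplified for 21 PCR cycles before tagmentation. The submitters' processing notes name Bowtie and mm10; how duplicate reads were collapsed and the strand setting are not given in the sources used here. Columns were matched to cells by the number in their names.

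Levels are counts per 10000 gene molecules, without spike-ins. For the 10 genes each symbol is 1 row; for others with several loci the largest count in each cell was used. Where a gene had 0 molecules, 3 molecules were taken as the limit; intervals are exact (95%) and cover counting error only. Comparisons between genes are given in molecules and per kilobase of the joined exons of GENCODE M21, which also gave positions. Whether each count stands for 1 RNA molecule was not settled. Doublets were not called in 9 cells; 10 marker lists were summed instead, of which 1 is not reported here. Members and lists were chosen with earlier results of these data known. Named besides the members were Crh, up to 3 genes with the most molecules of each of 8 lists, every listed gene with 10 or more molecules in 1 cell, and the 3 genes most like Nr3c1 and Tsc22d3; other listed genes were named after their values were seen. Alternatives were other detection limits, totals, thinning to 1021 molecules, sums of loci and leaving out cells. Steps were tested on simulated data. The tools were Python 3.11.15 with scipy 1.17.1, numpy 2.4.6, matplotlib 3.10.9 and pandas 2.3.3.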

Additional observations from a re-analysis of the deposited data

Results flagged for a closer look

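Of 27 measures over the 9 cells, 15 had 1 cell whose gap to the nearest cell as a share of the whole range exceeded Dixon's 95% critical value for 9 samples; chance flags about 1 in 20 groups when values are normally spread, and sparse counts are not. All values are molecules per 10000.

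Among the receptor and target genes, Fkbp4 stood apart in cell 9 at 3.83 (next 1.89), Sgk1 in cell 4 at 5.82 (next 2.79) and Ncoa2 in cell 7 at 4.19 (next 1.04). Crh stood apart in cell 9 at 24.3 (next 4.91). For Fkbp4 and Ncoa2 the value rests on 3 molecules.

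Among the summed lists, steroid access and other steroid receptors stood apart in cell 7 at 4.19, from 3 Abcb1a molecules, and immediate early genes in the same cell at 189 (next 101). Clock genes stood apart in cell 1 at 39.2, from 4 molecules, and the stress axis in cell 1 at 78.4, from 8 Oxt molecules in a cell of 1021.

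Among the marker sums, neuron markers stood apart in cell 1 at 607, of which 61 of 62 molecules were Meg3. Oligodendrocyte markers were at 209 and those of oligodendrocyte precursors at 1.51 in cell 5. Astrocyte markers were at 25, ependymal and tanycyte markers at 91.1 and fibroblast-like markers at 1.52 in cell 8. Blood markers were at 2085 in cell 4.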

How the results depend on the processing

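The count of 2 members in at least 5 of 9 cells was 1 with detection at 2 molecules, 0 at 3 molecules, and 0.017 on average after thinning each cell to 1021 molecules. It was 5 when 4 cells were enough, 1 when 6 were required, and 1 (Nr3c1) without cells 4, 5, 7 and 8, where 3 of 5 cells were required, against 5.78% of all gene rows. Leaving out 1 cell at a time gave 1 to 2, with 1 when cell 2, 4, 5, 7 or 8 was left out, since Tsc22d3 was in exactly these cells. The 7 cells with more Nr3c1 than Nr3c2, which are the cells with Nr3c1 since Nr3c2 was at 0 throughout, were 4 with a margin of 2 molecules, 2.00 on average after thinning, and 3 of 5 without cells 4, 5, 7 and 8. The median summed level of 6.39 stayed within 5.22 to 8.87 under every total, spike-in scaling and set of cells tried. With detection at 2 molecules, the genes in at least 5 cells were 4 in place of 8 for the Hsp90 complex, 1 in place of 2 for the stress axis, and 0 in place of 3 for other induced genes, for coregulators and for clock genes. Without cells 4, 5, 7 and 8, an alternative added after seeing the data, coregulators gave 0 and clock genes 1. Depth limits cells 1 and 6 most, where a 0 allows 29.4 and 8.84 per 10000.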
